A study of Mus musculus with 9 samples.

Results

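Beta-catenin siRNA was compared with control siRNA in mouse mesenchymal stem cells, the multipotent stromal cells of bone marrow, across every gene with enough reads to test. The genes were those of the deposited count table that passed a filter on low counts, 13240 of its 23358 entries. The cells came from the marrow of adult C57BL/6 mice and were used between passages 4 and 10. Control cultures (siCTL, 3 libraries) were given a non-targeting siRNA, and the beta-catenin cultures (siBcat, 3 libraries) an siRNA against beta-catenin, both a day after plating. All cultures were then kept in osteogenic medium, which holds ascorbic acid and beta-glycerophosphate, until lysis on day 4. The treatment label of siBcat also lists 5 µM of the Ezh2 inhibitor GSK126, whereas the titles, source names, series text and count columns give siBcat no inhibitor, and the groups used here follow the titles. The series text calls the 3 libraries of a group biological replicates. Each is a mixed culture, so fewer cells of a type and less RNA per cell cannot be told apart.

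Libraries were made from mRNA. Summed counts lay between 42324200 and 50327938 in the 6 libraries. The other 3 libraries of the fit were siCTL cultures with GSK126. They added to the estimate of the spread and took part in the count filter and the scaling. With the 6 siCTL and siBcat libraries alone, 12928 genes passed the filter, so some members counted below may have passed only through GSK126 libraries. Levels are in CPM, the usual count unit relative to the scaled total of each library, given for the 3 libraries of a group in order. Of the stromal markers, 11 of 12 were tested, and their summed level was 26622 to 31523 CPM in siCTL and 23925 to 26007 CPM in siBcat. The collagens Col1a2, at means of 15383 and 13108 CPM, and Col1a1, at 8871 and 7373 CPM, weighed most in this sum. By gene, 2 of the 11 rose, 3 fell and 6 were not called, with a median log2 fold change of -0.05. The 6 tested of 11 markers of macrophages and other blood cells summed to 11.9 to 14.4 CPM in siCTL and 12.035 to 12.9 CPM in siBcat, and Ptprc, Itgam and Tyrobp among them were too low to test. Of the 6, Lyz2 and Cd74 rose, to means of 0.391 and 1.08 CPM, and Cd68 fell to 0.929 CPM. Their median difference from the control mean (log2) was 0.73, 0.41 and -0.0016 in siBcat replicates 1 to 3, and the median log2 fold change of 0.48 became 0.16 without siBcat replicate 1, where 2 rose and 0 fell. The 2 tested of 8 endothelial markers summed to at most 2.06 CPM in any of the 6 libraries, and the 1 tested of 6 epithelial markers stood at no more than 0.543 CPM. Msln, the 1 tested of 4 keratinised or mesothelial markers, went from 2.504 to 3.529 CPM in siCTL to 0.0974 to 0.219 CPM in siBcat. The part of these markers in the results below was not tested.

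Beta-catenin, the product of Ctnnb1, has 2 known jobs. At the cell membrane it ties cadherins to the actin cytoskeleton through alpha-catenin. In the nucleus it binds TCF and LEF factors and switches on Wnt target genes, after Wnt ligands and their Frizzled and Lrp receptors have stopped its destruction in the cytoplasm. In marrow stromal cells it is best known for favouring bone formation over fat storage.

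The siRNA target Ctnnb1 lies on mm10 chromosome 9, from 120933400 to 120960507. Its 3 control libraries held 854.5, 860.1 and 878.9 CPM, and the siBcat libraries held 19.33, 19.31 and 19.12 CPM of Ctnnb1. No siBcat library came near a control. The log2 fold change was -5.49 (SE 0.05, adjusted p = 1.13e-15 by edgeR's quasi-likelihood test with Benjamini-Hochberg adjustment over all genes tested, the test and adjustment behind every adjusted p below). Plakoglobin (Jup), a catenin that can stand in for beta-catenin at cadherins, was also lower, by 2.17-fold (log2 fold change -1.12, SE 0.08); it was chosen after its values were seen.

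The depletion was followed by many small differences and few large ones. At an adjusted p under 0.05, 4666 genes differed (35.2% of those tested), 2346 higher (17.7%) and 2320 lower (17.5%) in siBcat. The median fold change was 1.28 among the genes that rose and 1.35 among those that fell. A change of at least 2-fold was met by 603 genes (4.55%), 265 higher and 338 lower, and 57 genes in each direction passed 4-fold. The 3 libraries of siBcat and the 3 of siCTL did not overlap at all for 7310 genes (55.2%).

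Large changes were more frequent among genes of low level, where the error was also larger. Level is here the average of the siCTL and siBcat means. Among the 1819 genes with a level under 1 CPM, 13.5% were called with at least 2-fold, at a median SE of 0.44 (log2). Of the 2083 genes between 100 and 1000 CPM, 0.912% were, at a median SE of 0.06. Of the 81 genes at 1000 CPM or more on this average, 25 rose and 15 fell, yet none by 2-fold. Tnc, with means of 289 CPM in siCTL and 1134.5 CPM in siBcat, lay outside this class, and its log2 fold change was 1.97. In CPM, the largest gain among called genes was that of Spp1 (osteopontin, a mineral-binding bone matrix protein), from a mean of 12126 to 17612 CPM. Next among called genes came the ribosomal RNA precursor Rn45s, from 12454 to 17532 CPM, and Thbs1 (thrombospondin 1), from 6626 to 9529 CPM. Rn45s is not an mRNA, whereas the libraries were made from mRNA, and what its reads stand for was not tested. The largest losses were those of Thbs2, from 5857 to 3192 CPM, of the type I collagen chain Col1a2, from 15383 to 13108 CPM, and of the type III collagen Col3a1, from 6329 to 4126 CPM. The 2 related thrombospondins, both secreted matricellular proteins, moved in opposite directions. All genes named for these gains and losses but Col3a1 were chosen after their values were seen.

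**Figure D1:**
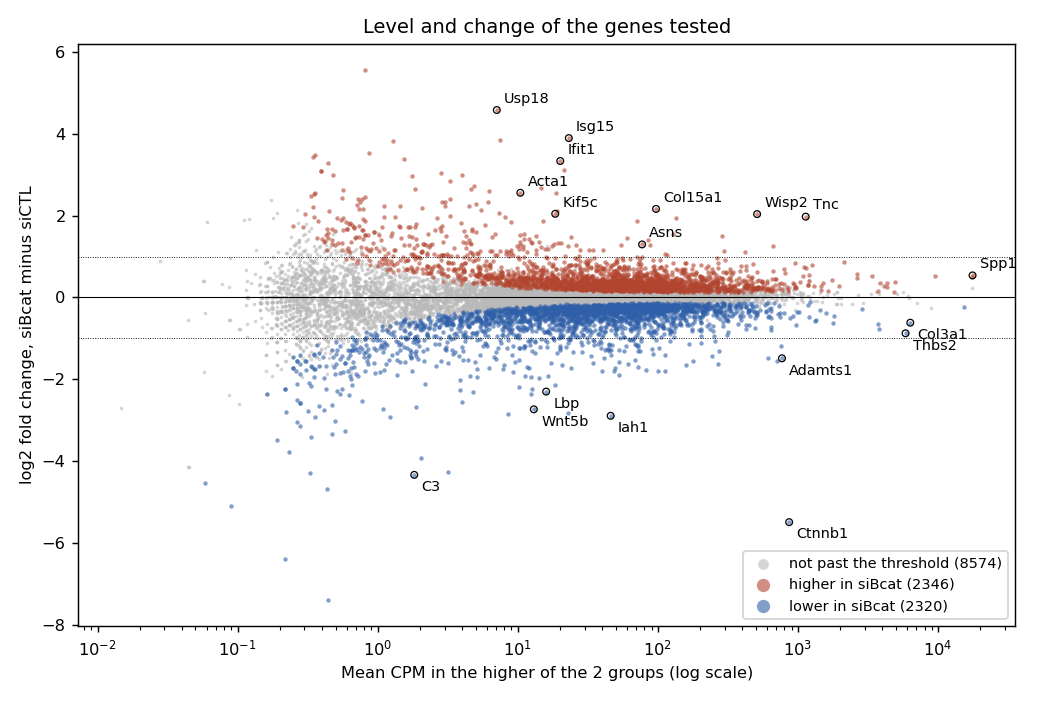
Each point is 1 of the 13240 genes tested; the horizontal axis gives the mean CPM in the higher group on a log scale, the vertical axis the log2 fold change of siBcat against siCTL, dotted lines mark 2-fold, and ringed genes are named. Changes past 2-fold lie mostly at low and middle levels, with Ctnnb1 alone at the bottom right.

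Among genes with at least 100 CPM in siBcat, the 10 highest changes included several secreted and contractile products. Predicted genes, known by clone or locus names, and repeated names were left out of this ranking and of the rankings by level below. Tnc (tenascin C, a matrix glycoprotein of healing and loaded tissue) stood at 299.8, 277.1 and 290.1 CPM in siCTL and at 1181, 1074 and 1149 CPM in siBcat. Wisp2, a matricellular protein of the CCN family, rose from 131.9, 125.6 and 116.2 to 525.4, 484.3 and 522.0 CPM. Both groups were tight and far apart, with log2 fold changes of 1.97 (SE 0.10) and 2.04 (SE 0.07). Il1rl1, the receptor of interleukin 33, rose 3.85-fold, Nr4a1, an immediate-early nuclear receptor, 2.95-fold, and Timp1, an inhibitor of matrix metalloproteinases, 2.41-fold. The smooth muscle genes Actg2 and Tagln rose 2.84-fold and 2.21-fold, and Fgf7, a growth factor made by mesenchyme for epithelia, 2.15-fold. Mmp13, the collagenase of cartilage and bone remodelling, rose 2.08-fold.

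At least 10 CPM were reached by further genes with a low control level. The skeletal muscle actin Acta1 stood at 1.674, 1.939 and 1.698 CPM in siCTL and at 10.71, 10.32 and 10.24 CPM in siBcat, a log2 fold change of 2.56 (SE 0.11). Its abundance stayed far under that of the smooth muscle genes. Has2, which makes hyaluronan, rose 3.64-fold, the axonal kinesin Kif5c 4.12-fold, and Tmem151a, a membrane protein, 4.34-fold. The cartilage collagen Col2a1 rose 3.66-fold and the basement membrane collagen Col15a1 4.47-fold.

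On the lower side, the abundant genes with the largest changes after Ctnnb1 had varied roles. Nov, another CCN protein, fell from 110.5, 119.4 and 104.7 to 32.04, 31.70 and 33.17 CPM, while its relative Wisp2 rose. Adamts1, a protease that cuts aggrecan and versican, fell from 767.8, 766.6 and 770.7 to 271.4, 270.8 and 280.4 CPM. Both had groups without overlap and log2 fold changes of -1.79 (SE 0.06) and -1.49 (SE 0.05). Slc40a1 (ferroportin, the exporter of iron) fell 2.63-fold, and Cp (ceruloplasmin, which oxidises iron as it leaves cells) fell 2.95-fold. Ggt5, which acts on glutathione conjugates, fell 3.12-fold, the paraspeckle RNA Neat1 3.09-fold, the peptidase Ermp1 of the endoplasmic reticulum 2.92-fold, the proteoglycan Ogn 2.77-fold and the matrix adaptor Matn2 2.69-fold.

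With at least 10 CPM in siCTL, the lowest changes after Ctnnb1 were those of Iah1, an esterase, and Hopx, a homeodomain protein that does not bind DNA. Iah1 stood at 45.74, 47.91 and 44.30 CPM in siCTL and at 6.623, 5.869 and 6.127 CPM in siBcat, a fall of 7.42-fold. Hopx fell 7.08-fold, from 25.43, 23.93 and 19.56 to 3.214, 3.400 and 3.107 CPM. The endotoxin-binding protein Lbp fell 4.92-fold, the aminopeptidase Anpep (CD13, a stromal surface marker) 3.86-fold, and Bmf, a BH3-only protein that promotes cell death, 3.48-fold. With predicted genes and repeated names left out, only 1 gene went from at least 1 CPM to at most 0.2 CPM in every library of the other group. It was the complement component C3, at 1.538, 1.763 and 2.164 CPM in siCTL and 0.0974, 0.162 and 0 CPM in siBcat. None of the genes kept went the other way.

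**Figure D2:**
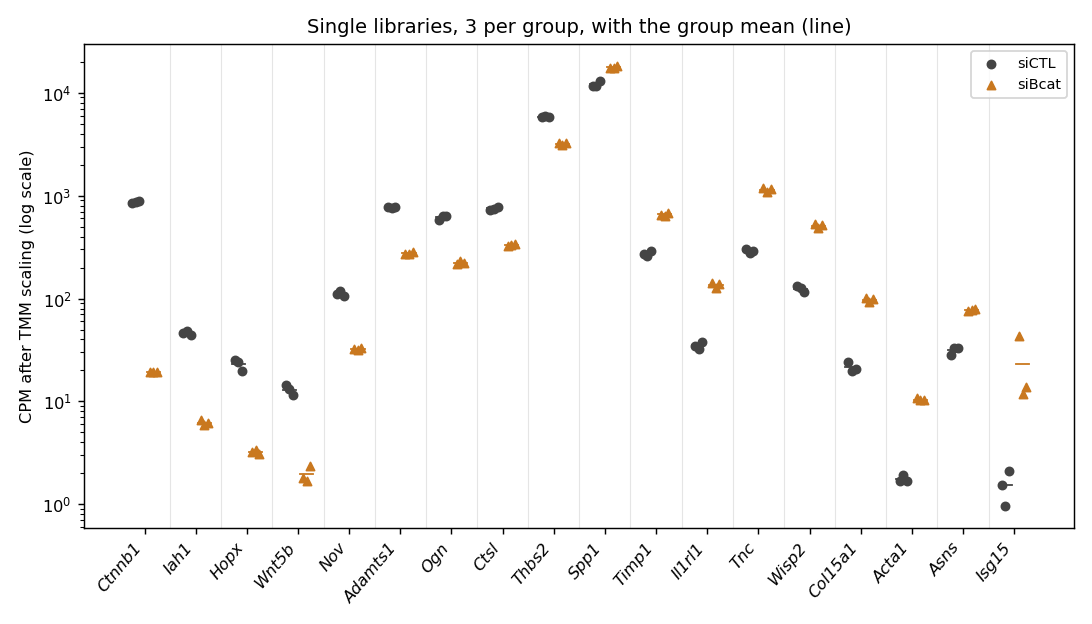
CPM of 18 genes on a log scale, a circle for each siCTL library and a triangle for each siBcat library, with a line at the mean. For each gene shown the 2 groups are apart; the triangles of Isg15 spread from 11.7 to 43.7 CPM, while those of Ctnnb1 lie between 19.1 and 19.3 CPM.

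To order the remaining genes, 49 gene lists were counted. Over all genes tested the median log2 fold change was 0.0024, and the shares called higher and lower were the 17.7% and 17.5% given above. The lists that leaned most to one side were interferon-stimulated genes, genes of Atf4 and amino acid supply, DNA replication, aminoacyl-tRNA synthetases and ribosomal proteins on the higher side. On the lower side they were the matrix proteases with their inhibitors, axon guidance genes, the nuclear partners of beta-catenin and the Notch genes. Lists such as integrins, collagens and lysosome genes held members in both directions.

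**Figure D3:**
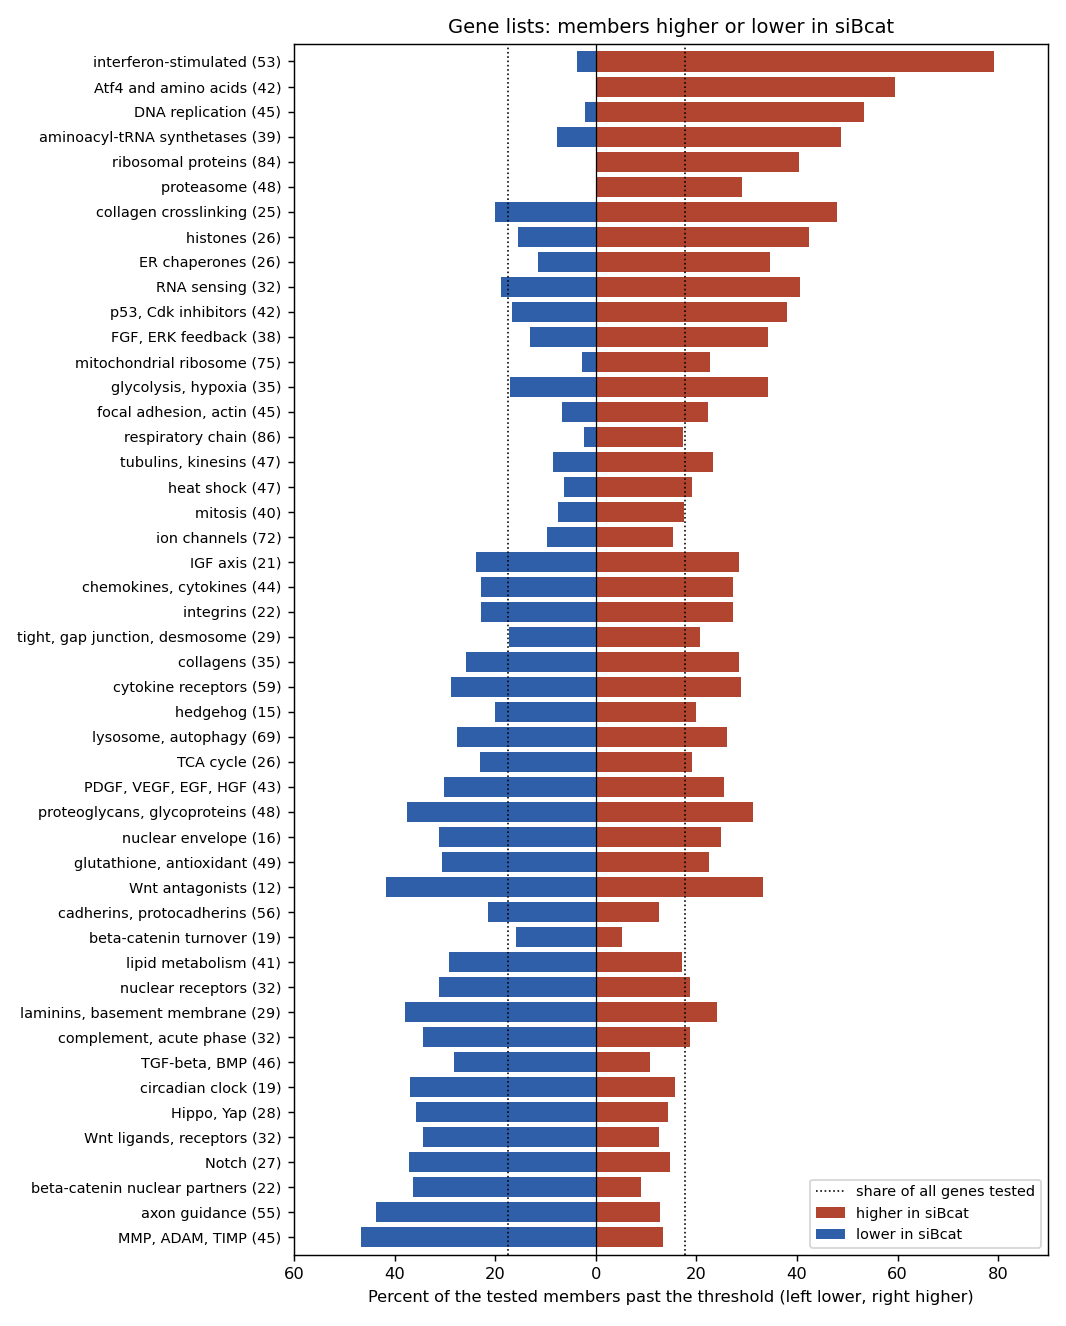
Each bar gives the percent of a list's tested members (number in brackets) that were higher (right) or lower (left) in siBcat at an adjusted p under 0.05, and dotted lines give the 17.7% and 17.5% of all genes tested. Interferon-stimulated genes reach farthest to the right and the protease list farthest to the left.

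Within the Wnt system, more genes fell than rose among the nuclear partners, ligands and receptors, while the antagonists split. Of 22 nuclear partners tested, 8 fell and 2 rose. Tcf7l2, a DNA-binding partner, stood at 41.63, 44.52 and 43.80 CPM in siCTL and 28.44, 27.12 and 27.13 CPM in siBcat. The partner Sox4, a transcription factor that binds beta-catenin, fell 1.87-fold, and the corepressor Tle3 1.35-fold, while the corepressor Tle1 rose 1.73-fold. Tcf7 and Lef1, chosen after their values were seen, fell 1.91-fold and 1.33-fold. The 2 became 4 without GSK126 replicate 3. Of 19 genes of beta-catenin turnover 3 fell and 1 rose (4 without GSK126 replicate 3), so that 21.1% were called against 35.2% of all genes. Ctnnbip1, which keeps beta-catenin off TCF, fell 1.43-fold and the scaffold Dvl1 rose 1.34-fold. Its relative Dvl2 fell 1.22-fold with overlapping groups, a call lost in several alternatives, among them without siCTL replicate 1 (adjusted p = 0.173).

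Of 32 Wnt ligands, receptors and R-spondins, 11 fell and 4 rose. Wnt5b, a ligand, fell from 14.39, 13.13 and 11.50 to 1.802, 1.700 and 2.363 CPM (log2 fold change -2.73, SE 0.14), and the receptor Fzd4 fell 2.06-fold. The R-spondins, which stabilise Wnt receptors, split: Rspo3 fell 2.05-fold and Rspo2 rose 1.57-fold. The receptor-like kinase Ryk rose 1.51-fold, and the 4 higher calls became 2 without siCTL replicate 2 or without siBcat replicate 2. The secreted antagonists split as well, with 5 of 12 lower and 4 higher. Dkk2 stood at 8.371, 9.080 and 7.893 CPM in siCTL and at 1.071, 1.255 and 1.182 CPM in siBcat. Frzb fell 1.55-fold, whereas its relatives of the secreted Frizzled-related family Sfrp1, Sfrp2 and Sfrp4 rose 1.30-fold, 1.67-fold and 1.29-fold.

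Among the cadherins, the other binding partners of beta-catenin, Cdh11 (the cadherin of mesenchyme) fell from 863.7, 865.9 and 893.7 to 618.3, 609.4 and 614.1 CPM. Cdh2 (N-cadherin) moved the other way, from 94.97, 97.45 and 94.13 to 114.3, 120.9 and 119.2 CPM. The list of 56 cadherins and protocadherins held 12 lower and 7 higher members, so that 33.9% were called, near the 35.2% of all genes. Within it, 7 of the 19 clustered beta protocadherins fell while none rose. These neighbouring genes are near copies, and how their shared reads were assigned is not given in the sources used here. Of the other junction genes, Cldn15 and Cldn1 (claudins) and Ppl (periplakin, a desmosomal linker) fell at least 2-fold, and the gap junction gene Gja1 rose 1.22-fold; Cldn1 was chosen after its values were seen. Among integrins, the laminin receptor subunits Itga3 and Itga6 both fell 1.81-fold, while Itgb3, a subunit of vitronectin receptors, rose 1.80-fold and Itga7, a laminin receptor of muscle, 2.90-fold. Of the 22 integrins tested 6 rose and 5 fell, and the 5 became 3 on leaving out any of replicates 1 and 2 of siCTL and of siBcat.

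Among matrix proteases and their inhibitors far more fell than rose. Of 45 tested, 21 fell and 6 rose, with a median log2 fold change of -0.31. The ADAMTS proteases held 6 lower and 0 higher of 11 tested. The genes named Adam, not all of which encode active proteases, held 7 lower and 1 higher of 15. Of the 11 MMPs 5 fell and 3 rose. At least 2-fold changes were met by 5 of the members that fell and 4 of those that rose. Mmp15 fell from 49.68, 42.89 and 38.11 to 16.85, 17.24 and 20.22 CPM, and Mmp11 (stromelysin 3) fell 1.58-fold. Mmp14, the membrane collagenase, fell 1.39-fold; it was chosen after its values were seen. Against these, Timp1 rose from 270.4, 258.4 and 290.9 to 652.0, 638.5 and 683.4 CPM. Adamtsl3, an ADAMTS-like protein without protease activity, rose 2.26-fold. Without siBcat replicate 2 the count of lower members was 13.

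Structural matrix genes split within families. Of 35 collagens 10 rose and 9 fell. The network-forming Col4a2 rose from 2500, 2378 and 2178 to 3578, 3226 and 3383 CPM, while Col10a1, the collagen of hypertrophic cartilage, fell 2.22-fold and Col18a1, the source of endostatin, 2.47-fold. Removing a trend on coding length turned the median of this list from -0.01 to 0.07, and leaving out siBcat replicate 1 turned it to 0.05. Of 29 basement membrane genes 11 fell and 7 rose. The fibulins, linkers of elastic fibres and basement membranes, divided evenly: Fbln1 fell from 61.67, 64.92 and 56.44 to 20.06, 18.58 and 20.70 CPM, and Fbln7 fell 3.36-fold. Fbln2 rose from 541.1, 539.4 and 503.6 to 989.6, 906.8 and 957.6 CPM, and Fbln5 rose 1.76-fold. The 11 lower calls of the basement membrane list became 7 without siCTL replicate 2, siBcat replicate 1 or siBcat replicate 3.

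Of 48 proteoglycans and matrix glycoproteins, 18 fell and 15 rose. Dcn (decorin), a small leucine-rich proteoglycan that binds collagen fibrils, fell 4.76-fold from a mean of 3.86 CPM. Its abundant relative Bgn (biglycan), chosen after its values were seen, had means of 7096 CPM in siCTL and 6456 CPM in siBcat and did not pass the test (adjusted p = 0.093). Bcan (brevican, a hyaluronan-binding proteoglycan) rose 6.61-fold from a mean of 0.732 CPM. Of 25 enzymes that process and crosslink collagen 12 rose and 5 fell. The lysyl oxidase Loxl3 rose from 330.5, 343.6 and 319.1 to 523.2, 492.7 and 515.9 CPM. The lysyl hydroxylases split, with Plod3 1.27-fold higher, Plod2 1.41-fold lower and Plod1 lower by a log2 fold change of -0.32, and the transglutaminase Tgm2 fell 3.73-fold. The 12 became 5 to 7 when siCTL replicate 2, siBcat replicate 1 or siBcat replicate 2 was left out.

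Axon guidance genes, which steer growing axons, vessels and migrating cells, fell more often than they rose. Of 55 semaphorins, plexins, ephrins, slits, netrins and their receptors, 24 fell and 7 rose (median log2 fold change -0.28). The list's median lay between -0.28 and -0.31 in each siBcat library and between -0.05 and 0.04 in each siCTL library. Sema3f, a secreted repellent, stood at 5.068, 4.672 and 3.565 CPM in siCTL and at 1.510, 1.457 and 1.663 CPM in siBcat. In all, 5 of the 7 class 3 semaphorins fell and none rose, and their receptors Plxna3 and Nrp1 fell 1.73-fold and 1.46-fold; Nrp1 was chosen after its values were seen. The netrin Ntn1 fell 1.45-fold, whereas its repulsive receptors went the other way, with all 3 tested Unc5 genes higher. Unc5b rose from 170.5, 167.1 and 154.3 to 277.9, 260.7 and 272.1 CPM. The membrane-anchored Sema7a, which signals through integrins, rose 1.65-fold and the ephrin Efnb1 1.53-fold.

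Several signalling families changed their mix of ligands and receptors. Kitl, the stem cell factor that marrow stroma presents to blood progenitors, fell from 246.3, 259.8 and 264.4 to 118.5, 130.3 and 121.1 CPM, and its receptor Kit fell 2.29-fold. Cxcl12, the chemokine that retains these progenitors, fell from 3713, 3781 and 3756 to 2377, 2420 and 2390 CPM. The macrophage growth factor Csf1 rose from 538.5, 517.0 and 534.8 to 815.6, 800.8 and 803.2 CPM. Of 43 genes of the PDGF, VEGF, EGF and HGF families 13 fell and 11 rose, with Figf (Vegfd) 2.06-fold lower and Hbegf, a ligand of the EGF receptor, 1.55-fold higher. Of 44 chemokines and cytokines 12 rose and 10 fell. Ccl9 rose 2.03-fold, and Ccl2 fell 1.85-fold. Of 59 cytokine receptors 17 rose and 17 fell: Il6ra fell from 28.78, 28.74 and 29.07 to 11.25, 10.89 and 12.34 CPM, and Tnfrsf11b (osteoprotegerin, the decoy that blocks osteoclast formation) rose 1.69-fold.

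Of 27 Notch genes 10 fell and 4 rose. The receptors moved apart, with Notch4 at 14.21, 16.26 and 11.97 CPM in siCTL against 3.312, 4.007 and 3.545 CPM in siBcat, and Notch1 1.66-fold higher. The target Hes1 rose from 5.384, 4.364 and 4.880 to 12.42, 13.36 and 11.51 CPM, although the coactivator Maml1 fell 1.39-fold. Of 46 genes of TGF-beta and BMP signalling 13 fell and 5 rose, so that 39.1% were called against 35.2% of all genes tested. Ltbp3, which holds latent TGF-beta in the matrix, fell 1.61-fold and the receptor Tgfbr1 1.96-fold, whereas the activin antagonist Fst (follistatin) rose 3.59-fold and the activin subunit gene Inhbb 1.72-fold. Of 38 genes of FGF signalling and ERK feedback 13 rose and 5 fell. Fgf7 led in abundance, Egr2 rose 1.64-fold, and the feedback inhibitors Dusp4 and Spry1 fell 1.40-fold and 1.22-fold. In the IGF axis 6 of 21 rose and 5 fell, and the binding protein gene Igfbp5 rose 2.09-fold, while the protease Htra1 fell 1.75-fold; the 5 became 3 without siCTL replicate 2.

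Interferon-stimulated genes formed the group with the highest share of higher members. Type I interferons bind the receptor made of Ifnar1 and Ifnar2, and the signal then reaches the interferon-stimulated response element in target promoters. Of 53 such targets tested 42 rose, 27 of them at least 2-fold, and 2 fell, with a median log2 fold change of 1.00. Usp18, which removes Isg15 from proteins and was chosen after its values were seen, stood at 0.181, 0.264 and 0.424 CPM in siCTL and at 12.47, 4.655 and 4.114 CPM in siBcat. Isg15 itself stood at 1.538, 0.970 and 2.122 CPM in siCTL and at 43.68, 11.74 and 13.96 CPM in siBcat. Ifit1, which binds foreign RNA, stood at 1.719, 1.190 and 3.013 CPM in siCTL and at 33.65, 13.28 and 13.30 CPM in siBcat. In each of these genes siBcat replicate 1 was the highest library by more than 2-fold, and all siBcat libraries exceeded all controls.

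The same library stood apart for the list: its median difference from the control mean was 1.48 (log2) in siBcat replicate 1, 0.62 in replicate 2 and 0.71 in replicate 3. Without siBcat replicate 1, 37 genes rose and 2 fell, the median was 0.69, and the log2 fold change of Isg15 was 3.04 in place of 3.89, that of Ifit1 2.73 in place of 3.33, that of Oasl2 2.24 in place of 3.12, that of Ifi44 2.87 in place of 3.85 and that of Irf7 1.95 in place of 2.54. The 2 that fell were Ifit2 (1.38-fold) and Irf1 (log2 fold change -0.33), both interferon-responsive in other settings. Among genes of RNA sensing, 13 of 32 rose and 6 fell. Dhx58, a regulator of the cytosolic RNA sensors, rose 6.06-fold, and the DNA-sensing adaptor Tmem173 (Sting) 1.31-fold. The receptor subunit Ifnar1 fell 1.27-fold and Ifngr1, of the type II receptor, 1.27-fold; both were chosen after their values were seen. Of 19 interferon ligand genes in the table, 2 had any count in the 6 libraries, with at most 2 counts in a library.

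Promoters of this group are shown because interferon-stimulated genes are known for a response element there. RefSeq promoters on GRCm38, 250 bases before to 50 after a gene's start, were matched for 34 of the 42 members that rose (81.0%). An ISRE-like motif, GAAANNGAA on either strand, was found in 21 of their 40 promoters (52.5%), against 8.56% of the 32851 promoters in the table. The members were listed as known interferon targets, and the 32851 include promoters of genes not tested here. These shares are therefore a description and not a test. The same count for the 2-fold changed genes is void, since promoters were matched for 75.1% of those that rose and 68.9% of those that fell, and for 78.8% of all genes tested. The rule set for printing took the smallest adjusted p among genes with a match that rose at least 2-fold. It picked Tnc, with 1 match, and Mmp13, with 2, which are not on the interferon list and are not printed. The 2 promoters below belong instead to the listed genes with the highest log2 fold changes that had a match, chosen after the values were seen. Isg15 is at chr4:156200769-156201068 on the minus strand and holds 3 overlapping matches, the first beginning 78 and the last 66 bases before the start. Ifi44 is at chr3:151749861-151750160 on the minus strand and holds 1, beginning 3 bases before the start. Both are written 5′ to 3′ on the strand of the gene, with the motif in capitals.
Isg15: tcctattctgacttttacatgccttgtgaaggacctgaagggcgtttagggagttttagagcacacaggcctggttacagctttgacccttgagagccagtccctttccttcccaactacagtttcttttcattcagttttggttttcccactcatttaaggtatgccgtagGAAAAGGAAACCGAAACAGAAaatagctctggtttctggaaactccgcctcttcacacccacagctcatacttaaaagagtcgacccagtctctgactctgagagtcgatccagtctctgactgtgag
Ifi44: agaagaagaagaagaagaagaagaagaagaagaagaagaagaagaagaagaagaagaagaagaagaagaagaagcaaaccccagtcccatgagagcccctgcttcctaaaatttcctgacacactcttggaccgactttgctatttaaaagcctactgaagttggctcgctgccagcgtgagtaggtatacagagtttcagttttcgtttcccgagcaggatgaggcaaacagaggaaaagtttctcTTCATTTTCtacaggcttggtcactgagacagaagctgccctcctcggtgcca
A match in these letters is a description and not a site shown to be bound.

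**Figure D4:**
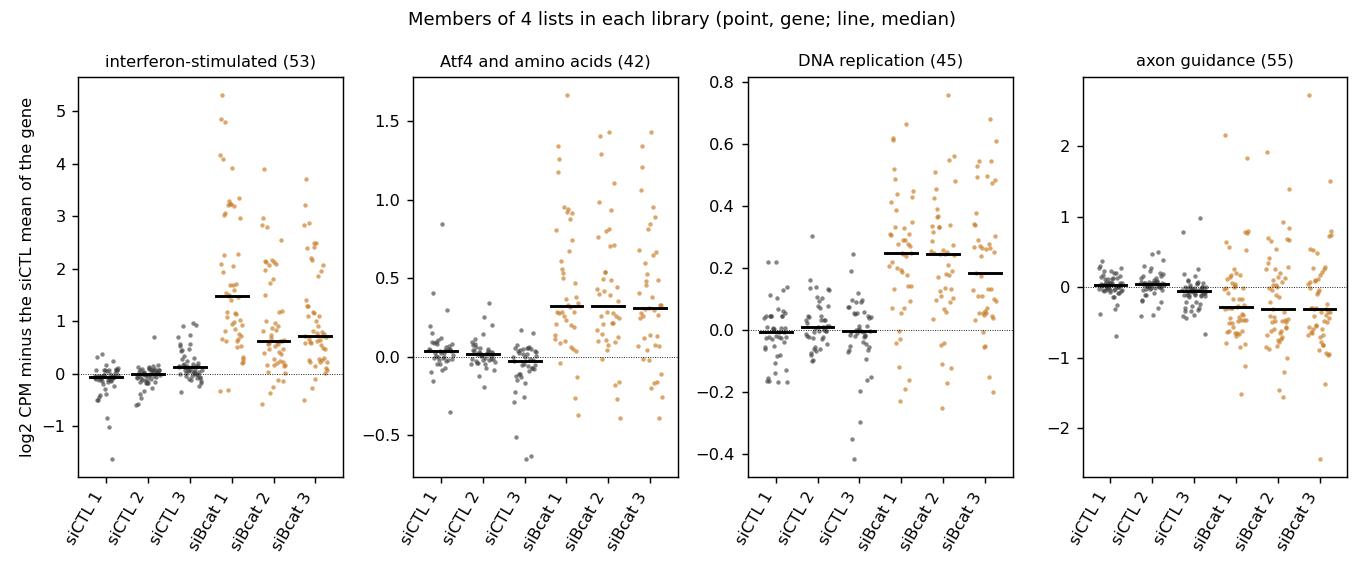
Each point is a gene, plotted as its log2 CPM in a library minus its mean over the siCTL libraries, for the tested members of 4 lists (number in brackets); lines give medians. The interferon-stimulated median is 1.48 in siBcat 1 against 0.62 and 0.71 in the other siBcat libraries, while the Atf4 list has medians of 0.31 to 0.32 in all 3.

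Among genes of amino acid supply many rose and none fell past the threshold. Atf4 is a transcription factor that is translated when amino acids run short or the endoplasmic reticulum is stressed, and it binds amino acid response elements in genes for amino acid synthesis and uptake. Of 42 genes of this programme 25 rose and 0 fell, with a median log2 fold change of 0.32 that lay between 0.31 and 0.32 in each siBcat library. Asns (asparagine synthetase) stood at 28.10, 33.15 and 33.02 CPM in siCTL and at 75.14, 76.83 and 79.34 CPM in siBcat. Bcat1, which transaminates branched-chain amino acids, rose 1.89-fold, Mthfd2, of mitochondrial folate metabolism, 1.81-fold, and Got1, an aspartate aminotransferase, 1.52-fold. The serine enzymes Phgdh and Shmt2 rose 1.48-fold and 1.44-fold, and Cth, which makes cysteine, rose 2.92-fold from a mean of 0.776 CPM; these 3 were chosen after their values were seen. Atf4 itself had 140.5, 131.5 and 135.8 CPM in siCTL and 149.3, 153.1 and 142.5 CPM in siBcat, and did not pass the test (adjusted p = 0.199). In the fit without GSK126 replicate 3, and in that with the 6 siCTL and siBcat libraries alone, 2 members fell, and 1 did with library size scaling alone.

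The amino acid response motif TGATGNAA, on either strand, was found in 5 of the 29 promoters (17.2%) of the 22 members that rose and had an entry, 88% of the 25. It was held by 3.97% of all promoters listed, those of genes not tested here included. The members were listed as known genes of this programme, so these shares too are a description and not a test. The 2 promoters printed had the smallest adjusted p among listed genes with a match. Asns is at chr6:7693160-7693459 on the minus strand, with the match beginning 23 bases before the start, and Got1 at chr19:43524556-43524855 on the minus strand, with the match, on the opposite strand, beginning 102 bases before.
Asns: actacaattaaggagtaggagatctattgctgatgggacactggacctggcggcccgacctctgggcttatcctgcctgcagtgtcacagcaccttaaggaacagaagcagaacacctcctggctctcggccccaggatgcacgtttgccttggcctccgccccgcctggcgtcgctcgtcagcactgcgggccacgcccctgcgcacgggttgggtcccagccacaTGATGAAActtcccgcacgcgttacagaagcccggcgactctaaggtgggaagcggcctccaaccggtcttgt
Got1: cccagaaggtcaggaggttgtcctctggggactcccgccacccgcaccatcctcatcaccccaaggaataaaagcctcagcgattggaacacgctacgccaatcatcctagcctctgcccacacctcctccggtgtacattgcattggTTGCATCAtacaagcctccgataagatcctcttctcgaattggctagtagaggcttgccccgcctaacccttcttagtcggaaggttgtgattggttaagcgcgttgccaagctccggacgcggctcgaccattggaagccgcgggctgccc
Capitals mark the motif as above.

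Among genes of translation more rose than fell. Of 39 aminoacyl-tRNA synthetases and their scaffolds, which charge tRNAs, 19 rose and 3 fell. Gars, for glycine, stood at 161.3, 164.3 and 168.2 CPM in siCTL and at 217.3, 218.8 and 225.2 CPM in siBcat. Sars and Cars rose 1.29-fold and 1.30-fold, while Wars, for tryptophan, fell 1.30-fold. Among the 17 mitochondrial synthetases 4 rose and 2 fell. Lars2, chosen after its values were seen, was among the 4, with means of 3391 CPM in siCTL and 4302 CPM in siBcat. What the reads of Lars2 stand for was not tested. Of 84 ribosomal protein genes, 34 rose and 0 fell, the median being 0.20. With the trend on coding length removed, 29 rose and 1 fell, and the median was 0.096. Rpl7l1 and Rps27l, 2 relatives of ribosomal proteins, rose 1.33-fold and 1.32-fold. The 34 became 15 with library size scaling alone, 21 with upper quartile scaling, 66 without GSK126 replicate 3 and 14 to 20 without any 1 library of siCTL or siBcat. Processed pseudogenes share reads with these genes, and their assignment is not given in the sources used here.

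Proteasome genes, which encode the protein-degrading particle and its assembly factors, held 14 higher and 0 lower of 48. Psmd8 rose from 166.8, 168.5 and 162.0 to 218.4, 229.8 and 223.5 CPM. The 14 became 8 without siCTL replicate 2 and 27 without GSK126 replicate 3. Mitochondrial ribosomal proteins held 17 higher and 2 lower of 75, and the respiratory chain with ATP synthase and related genes 15 higher and 2 lower of 86, both near the background on the higher side. Ndufs1, of complex I, rose from 72.44, 69.77 and 75.75 to 106.4, 105.2 and 107.0 CPM. The mitochondrial chaperones Hspd1 and Hspa9 rose 1.41-fold and 1.33-fold, and among the chaperones of the endoplasmic reticulum Calr rose 1.28-fold and the stress sensor Ern1 fell 1.69-fold. The higher count was 8 to 27 for the mitochondrial ribosome and 5 to 33 for the respiratory chain, each lowest without siBcat replicate 2 (for the mitochondrial ribosome also without siCTL replicate 2) and highest without GSK126 replicate 3. The lower counts of 2 ranged from 1 to 6 and from 1 to 8, both highest with the trend on coding length removed.

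Genes of DNA synthesis and of mitosis were counted apart. Of 45 replication genes 24 rose and 1 fell, with a median log2 fold change of 0.24. Rrm2, a subunit of the ribonucleotide reductase that makes DNA precursors, stood at 96.20, 96.48 and 94.76 CPM in siCTL and at 151.8, 162.0 and 153.6 CPM in siBcat. Of the 7 Mcm genes, whose products form or load the replicative helicase, 6 rose and 0 fell, with Mcm5 at 1.28-fold and Mcm3 at 1.24-fold. Of 40 mitosis genes 7 rose and 3 fell (median 0.06), so that 25% were called against 35.2% of all genes tested. Aurka, a spindle kinase, rose 1.32-fold, whereas the kinetochore gene Cenpf fell 1.30-fold. Their 7 became 3 without siCTL replicate 2 and 4 without siCTL replicate 1 or siBcat replicate 2, and their 3 became 7 without GSK126 replicate 3 and 1 without siBcat replicate 2 or 3. The replication gene count of 1 lower became 2 without GSK126 replicate 3. The difference between the replication and mitosis lists was not tested.

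Of 42 genes of p53 targets and Cdk inhibitors, 16 rose and 7 fell. Ccng1, a p53 target, stood at 679.1, 700.6 and 700.2 CPM in siCTL and at 1115, 1153 and 1151 CPM in siBcat. The antiproliferative gene Btg2 rose 1.73-fold and the death receptor Tnfrsf10b 1.51-fold. The Cdk inhibitor Cdkn1a rose 1.53-fold (chosen after its values were seen), and the Cdk4 and Cdk6 inhibitor Cdkn2c fell 1.55-fold. Histone genes held 11 higher and 4 lower of 26. All 8 called members of the histone clusters rose, among 16 tested, while the replacement variant H3f3a fell 1.26-fold. Hist1h2bc stood at 7.963, 8.022 and 8.233 CPM in siCTL and at 20.41, 19.79 and 21.05 CPM in siBcat. Cluster histones are near copies of each other, and their transcripts mostly lack the poly(A) tail by which mRNA is usually captured.

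Glutathione transferases and other antioxidant genes gave calls in opposite directions. Glutathione transferases join glutathione to reactive compounds so that these can leave the cell. Of 14 soluble transferases 6 fell and 2 rose, and all 3 microsomal ones fell. Gsta4, which clears the lipid peroxidation product 4-hydroxynonenal, stood at 11.63, 12.56 and 13.41 CPM in siCTL and at 2.532, 2.388 and 3.107 CPM in siBcat. Gstm1 fell from 71.36, 69.33 and 74.05 to 31.31, 29.99 and 31.99 CPM, and Gstt1 fell 3.15-fold. Against these, the quinone reductase Nqo1 rose 1.58-fold, the extracellular superoxide dismutase Sod3 1.99-fold and the metallothionein Mt2 2.26-fold. Over the list of 49, 15 fell and 11 rose; without siCTL replicate 2, 9 fell.

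Lysosome and autophagy genes were called often and in both directions, 18 higher and 19 lower of 69. The protease Ctsl (cathepsin L) fell from 725.1, 744.1 and 784.4 to 323.8, 328.7 and 339.2 CPM, and the membrane protein Lamp1 from 1347, 1317 and 1392 to 939.5, 908.4 and 939.3 CPM. The calcium channel Mcoln1 fell 1.63-fold. On the other side Ctsh (cathepsin H) rose 1.46-fold and the conjugation factor Atg12 1.33-fold. Of 35 genes of glycolysis and hypoxia 12 rose and 6 fell, with Pgam1 at 1.42-fold and the hexokinase gene Hk2 at 1.33-fold higher and the lactate transporter gene Slc16a1 1.30-fold lower. In the TCA cycle the malate and isocitrate dehydrogenases split by gene: Mdh2 rose from 202.1, 202.1 and 201.4 to 259.9, 270.1 and 268.3 CPM and Mdh1 fell from 122.76, 123.02 and 123.62 to 86.54, 90.75 and 87.00 CPM, the first in mitochondria and the second in the cytosol. Idh3a rose 1.21-fold, and Idh1 and Idh2 fell 1.45-fold and 1.28-fold. Of 26 such genes 5 rose and 6 fell, and the 5 became 3 without siBcat replicate 1 and 10 without GSK126 replicate 3. Of 41 genes of lipid metabolism 12 fell and 7 rose, with the cyclooxygenases Ptgs1 and Ptgs2 1.41-fold and 1.56-fold higher; the 7 became 11 without GSK126 replicate 3.

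Among clock genes, Per2, Per3 and PAR-domain output factors fell. The circadian clock is a loop in which Clock and Arntl switch on Per, Cry and Nr1d genes, whose products then silence it, and PAR-domain factors such as Dbp carry its output. Of 19 clock genes 7 fell and 3 rose. Per3 stood at 21.90, 19.17 and 19.10 CPM in siCTL and at 8.668, 9.391 and 8.271 CPM in siBcat, and Dbp at 15.29, 14.94 and 13.07 CPM against 5.698, 6.558 and 6.565 CPM. Per2, chosen after its values were seen, fell 2.43-fold, and Tef, a second PAR-domain factor, 1.53-fold. Nr1d2, a repressor of Arntl, fell 1.35-fold, and Arntl rose 1.22-fold, a call lost on leaving out any of siCTL replicates 1 and 2 and siBcat replicates 2 and 3 (adjusted p from 0.0536 to 0.141). The repressors Nfil3 and Bhlhe40 rose 1.32-fold and 1.24-fold. Per1 (log2 fold change 0.04, SE 0.08) and Clock (-0.11, SE 0.12) did not pass the test. All libraries were labelled day 4, and no label gives an hour of lysis.

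**Figure D5:**
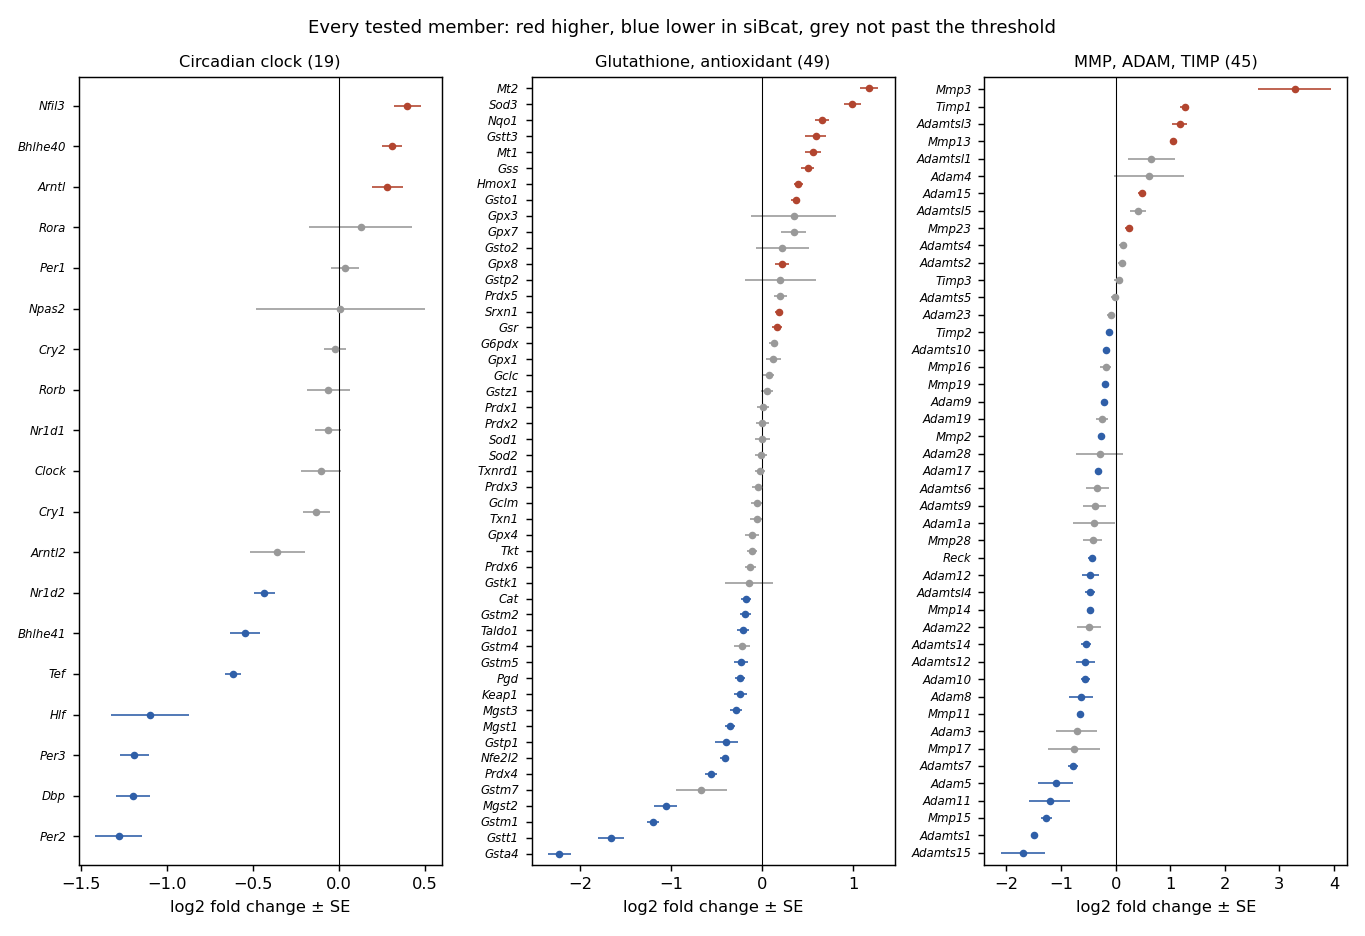
Log2 fold change of siBcat against siCTL with its SE for every tested member of the clock list, the glutathione and antioxidant list and the list of matrix proteases with their inhibitors; red marks higher, blue lower and grey not past the threshold. Per2, Dbp, Per3 and Hlf lie under -1, as do Gsta4, Gstt1, Gstm1 and Mgst2.

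Some changed genes were neighbours on the chromosome. In 4 places, 4 consecutive tested genes were called in 1 direction with a log2 fold change of at least 0.5. On chromosome 13, 23583670 to 23692480, the histone genes Hist1h2be, Hist1h1e, Hist1h2ac and Hist1h2bc were higher (0.94 to 1.34). Farther along the same chromosome, 49504810 to 49624500, the proteoglycan genes Ecm2, Aspn, Omd and Ogn were lower (-1.47 to -0.55), all within the span of Cenpp. On chromosome 16, 35832878 to 36036162, Parp14, Dtx3l and Parp9, which are interferon-stimulated, and the importin gene Kpna1 were higher (0.52 to 1.26). On chromosome 3, 86224690 to 86999340, Lrba, Mab21l2, Dclk2 and Cd1d1 were lower (-1.91 to -0.51). Positions are on mm10. Dtx3l overlaps Parp9, Mab21l2 lies within Lrba and Hist1h1e overlaps Hist1h2be in the table, so reads there may count for either gene. The calls of Hist1h2be, Hist1h2ac and Ecm2 each ended when single libraries were left out, at adjusted p up to 0.162, 0.0678 and 0.0788.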

How the data were processed

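RNA-seq of 9 libraries was used: siCTL, siBcat and siCTL with GSK126, 3 each. The deposited table holds raw counts per gene, all of them even numbers, and gives gene positions and coding lengths. The authors' notes on processing name mm10, HTSeq, TopHat2 2.0.6 and bcl2fastq, per the submitters' processing notes. Which annotation, strand setting and rule for multiply aligned reads were used is not given. Another 6 per-sample columns were not used.

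Counts were filtered (filterByExpr, minimum count 10, minimum total 15), scaled by TMM and fitted over the 9 libraries in edgeR 4.0.16 (quasi-likelihood, robust; R 4.3.3), with 6 residual degrees of freedom and Benjamini-Hochberg adjustment at 0.05. The SE was the log2 fold change divided by the square root of F. Names that stand for several entries (69 entries, 26 names) were kept apart. The fit was tested on simulated data. Alternatives were other scalings, filters and tools (limma 3.58.1, DESeq2 1.42.0), trends on GC content or coding length removed, a replicate block, halved counts, and each library left out.

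Named genes were Ctnnb1, the 10 highest and 10 lowest called changes without overlap at 100 CPM, the 15 at 10 CPM, up to 3 called members per direction of each list by adjusted p, genes at 1 CPM against at most 0.2, promoters by motif, and runs of 4 neighbours; others are said to be chosen after their values were seen. Predicted genes and names that stand for several entries were left out of the picks at 100 CPM, 10 CPM and 1 CPM. Members and lists were chosen with earlier results of these data known, and 2 list patterns (chemokines, cytokine receptors) were corrected after values were seen. Of 317 named genes, 39 overlap another tested gene, among them Iah1, Timp1, Tagln, Has2, Cp, Wnt5b, Dbp and Col10a1. Some genes and 1 list are not reported here. The p-values measure the spread among these cultures.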

Additional observations from a re-analysis of the deposited data

How the results depend on the processing

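Over 23 alternatives, 294 of the 317 named genes kept their call in every one and 0 changed sign. The count of called genes ranged from 3613 to 6320, and that of 2-fold changes from 524 to 642. Leaving out 1 siCTL or siBcat library gave 3613 to 4026 called genes, and leaving out 1 GSK126 library 4500 to 6320. The share of calls that were higher was 50.3%, 41.7% with library size scaling alone and 55.4% with the trend on coding length removed. Correlations of deviations between siCTL and siBcat libraries of the same replicate number were -0.026, 0.023 and 0.069. Between libraries of different number they lay from -0.074 to 0.057. Deviations from a mean of 3 libraries are tied to each other, so these values cannot settle whether the numbers mark pairs. With the replicate number as a block 4514 genes were called and 586 changed 2-fold, and with the GC trend removed as well 4927 and 583. Of 2254 counts of list members under the alternatives, 2117 were within 1.5 times those reported. Some list medians near 0 changed sign, and no direction is given for them: hedgehog and ion channels with library size scaling alone; collagens, TCA, IGF, integrins, Hippo, nuclear receptors and beta-catenin turnover with the trend on coding length removed; glutathione, IGF and TCA with the GC trend removed; and collagens, TCA, hedgehog and ion channels without siBcat replicate 1. A floor of 3 counts was 0.061 to 0.073 CPM in siCTL and siBcat. All counts were even, and if a fragment was counted as 2, a floor of 3 fragments was 0.121 to 0.146 CPM, which limits values near 0.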

Other observations

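Actin-related and nuclear structure genes held changes in both directions. Of 45 genes of focal adhesions and actin 10 rose and 3 fell, so that 28.9% were called against 35.2% of all genes tested. The 10 became 5 without siCTL replicate 2 or siBcat replicate 1, 6 without siCTL replicate 1 or siBcat replicate 2 or 3, and 17 without GSK126 replicate 3, where 5 fell; they became 6 with library size scaling alone and 18 with the trend on coding length removed. Of 16 genes of the nuclear envelope 5 fell and 4 rose: the SUN proteins Sun1 and Sun2, which link the nucleus to the cytoskeleton, fell 1.64-fold and 1.26-fold, and Lmna, which encodes lamins A and C, rose 1.36-fold. The call of Lmna was lost with the 6 siCTL and siBcat libraries alone (adjusted p = 0.0666 by edgeR's quasi-likelihood test). Of 47 tubulin and kinesin genes 11 rose and 4 fell, and of 72 ion channel genes 11 rose and 7 fell. Called were 31.9% and 25%, both under the 35.2% of all genes tested. The ion channels were of low level, with a median of 0.94 CPM per kilobase of coding length in siCTL. Without GSK126 replicate 3 the lower counts were 7 and 15; the 4 became 1 without siBcat replicate 3 and 2 without any other single library of siCTL or siBcat.

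Of 28 Hippo pathway genes and YAP targets 10 fell and 4 rose; the 4 became 8 without GSK126 replicate 3 and 2 without replicate 2 of siCTL or siBcat, and the 10 became 6 without siBcat replicate 2 or 3. Of 32 complement and acute-phase genes 11 fell and 6 rose. Of 32 nuclear receptors 10 fell and 6 rose, with Rarb, a retinoic acid receptor, 2.56-fold lower, and Vdr, the vitamin D receptor, 1.29-fold higher. Of 15 hedgehog genes 3 rose and 3 fell, so that 40% were called, near the 35.2% of all genes tested. The call of Gli1, a transcription factor of this pathway, was lost when single siCTL or siBcat libraries were left out (adjusted p up to 0.111).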
